A study of Arabidopsis thaliana with 6 samples.

Results

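The genes described here belong to 2 connected systems of the plant endomembrane: autophagy, which encloses cytoplasm in a double membrane and delivers it to the vacuole, and vesicle traffic, which moves cargo between compartments and to the plasma membrane. In autophagy the ubiquitin-like ATG8 proteins are joined to a lipid of the growing membrane by a conjugation chain in which ATG3 acts as the E2-like enzyme. In vesicle traffic the exocyst complex (SEC3, SEC5, SEC6, SEC10, SEC15, EXO84 and other subunits) tethers secretory vesicles to the plasma membrane, Sec1/Munc18 proteins such as SEC1B act with SNAREs in fusion, PRA1 proteins are membrane proteins that bind prenylated Rab GTPases, and the ESCRT complexes, which hold most of the VPS genes named below, sort membrane proteins into the inner vesicles of multivesicular bodies. Autophagy is known to take part in clearing the contents of differentiating xylem vessels, and secretion through the exocyst is known to supply their wall thickenings.

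Members were all genes with a probe set assigned to exactly 1 gene whose symbol opens with ATG and a digit, SEC and a digit, PRA1, EXO70, EXO84, VPS, SYP or VAMP. This gave 44 genes, each with 1 probe set, of 16542 genes with such a probe set: 8 ATG, 11 SEC, 14 PRA1, 1 EXO84 and 10 VPS genes, and 0 with an EXO70, SYP or VAMP symbol. The rule used gene symbols and no signal values, and the families were picked with earlier results of these data known. The 8 ATG genes were ATG3 and 7 ATG8 genes, so the rest of the autophagy machinery was not analysed here under ATG symbols. The RefSeq table of assembly TAIR10.1 held 43 of the 44. PRA1.C had no entry there and is given without a locus.

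RNA was taken from cotyledons of wild-type Arabidopsis thaliana in VISUAL, a culture system that turns leaf cells into xylem and phloem cells. Seedlings were 6 days old and grown in MS liquid medium at 22 °C. The induction medium held the auxin 2,4-D (1.25 mg/L), the cytokinin kinetin (0.25 mg/L) and bikinin (10 µM), which blocks GSK3-type kinases, with 5% glucose or 5% sucrose. Each sugar was measured at 0, 24 and 48 h on 1 array per sugar and time, 6 arrays in all. All groups share the genotype, and the labels list the same hormones for each. By the titles the 0 h arrays stand before culture. Comparisons with 0 h are therefore of culture as a whole, in which time, hormones and sugar cannot be told apart. Those between cultured arrays are of time or of sugar. The titles gave the times used here. The time field of the labels gave another value on 5 arrays, 34 h for glucose 24 h and 72 h for glucose 48 h and for every sucrose array. No label states that arrays came from separate cultures. The p-values therefore describe how far these 6 arrays scatter, and that scatter may be technical. For the time differences it holds the difference of the 0 h pair and any change of the sugar difference from 24 to 48 h. A gene whose sugar difference changes between those times therefore has a wider standard error.

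Values are log2 signals, with each array scaled to a common trimmed mean and signals below 4.90 (29.8 on a linear scale, the 40th percentile over the pooled arrays) raised to that floor. Each ± is a standard error of the fitted difference, n is 2 arrays per time, and adjusted p-values come from limma with Benjamini-Hochberg adjustment over the 25826 probe sets tested. A gene rose or fell where its adjusted p was under 0.05. Trimmed means of the arrays were 166.6 to 207.4 before scaling, and medians of the deposited log2 signals were 5.33 to 5.92. Background control probes of high GC content had medians of 9.30 (glucose) and 8.56 (sucrose) at 0 h and 7.50 to 8.35 on the cultured arrays. Markers showed the change of tissue over time: all 9 mesophyll photosynthesis genes fell at both times (array means 11.05 and 10.84 at 0 h, 6.04 to 7.18 later), and all 5 genes of dividing cells rose at both (5.93 and 5.59 at 0 h, 8.17 to 9.83 later). Of 4 xylem vessel genes, 0 passed at 24 h and 1 rose at 48 h. Of 7 phloem genes 3 rose and 1 fell at 24 h, and 5 rose and 1 fell at 48 h. Of 3 procambium and cambium genes 1 rose at 24 h and 2 at 48 h. On each 0 h array 2 of the phloem, 1 of the xylem vessel and 1 of the procambium and cambium genes were at the floor. A gene at the floor on both 0 h arrays could pass the filter only through its cultured arrays. Any rise of such a gene follows in part from the filter. Of 2 guard cell genes tested FMA did not pass at 24 h and fell at 48 h. SPCH is counted as lower at both times, but it passed the filter through its 0 h arrays alone. Its cultured values are all the floor, so its difference follows from the filter and the floor. In the dividing-cell list, AUR2 was at the floor at 0 h on both sugars and passed the filter through its cultured arrays, where it was high. In such bulk samples fewer cells of a type and less RNA per cell cannot be told apart.

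Of the 44 members, 36 were above the floor on all 6 arrays. PRA1.E, PRA1.F1, PRA1.G1 and VPS24.2 were at the floor on every array and were not tested. ATG8E, PRA1.C, VPS2.2 and VPS9B were above it on 4, 2, 5 and 3 arrays. The heat map of all members shows these states with the change of each gene since 0 h.

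**Figure D1:**
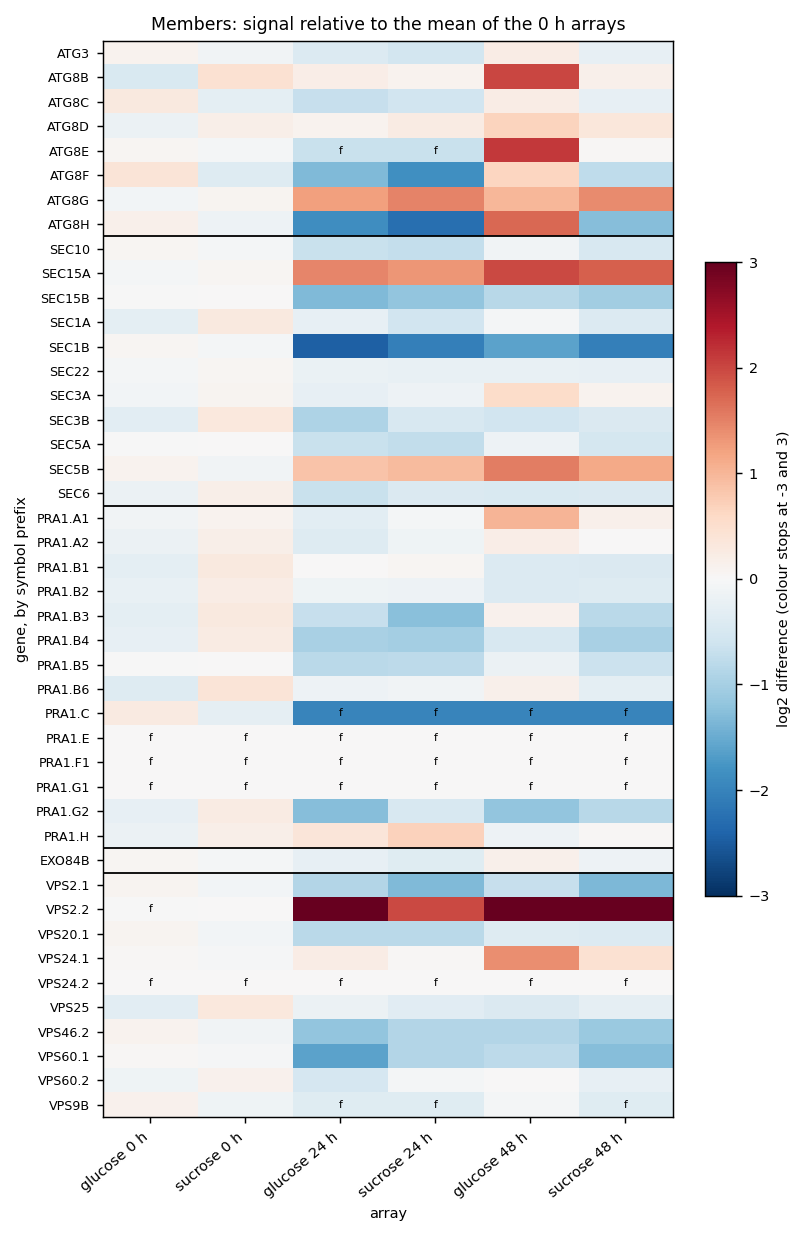
Each row is 1 of the 44 genes and each column 1 array; colour gives the log2 signal minus the mean of both 0 h arrays, with the scale stopping at 3 on either side, and f marks a signal at the floor. VPS2.2 was the only row to reach the end of the scale, and ATG8B, ATG8E and ATG8H were high at 48 h in glucose alone.

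At 24 h, 4 members rose and 11 fell of the 40 tested, 37.5%. Over all probe sets tested, 44% passed the same threshold, 24.2% higher and 19.8% lower. At 48 h, 4 rose and 6 fell, 25% of the members, against 42% of all probe sets, 22.1% higher and 19.9% lower. Over the 10662 probe sets with 1 gene the shares were 40.4% at 24 h (18% higher, 22.4% lower) and 43.4% at 48 h (21.4% higher, 22% lower). The share of members called was not above the background at either time. ATG8G, SEC15A and SEC5B rose at both times. VPS2.2 is counted as higher at both times too, but it passed the filter through its cultured arrays, where it was high. At 0 h its glucose array was at the floor and its sucrose array just above it. SEC15B, SEC1B, VPS2.1 and VPS46.2 fell at both. PRA1.C is also counted as lower at both times, but it entered the test through its 0 h arrays alone and its 4 cultured values are all the floor, so its difference follows from the filter and the floor. Without it 10 genes fell at 24 h and 5 at 48 h. ATG8F, ATG8H, SEC10, SEC5A, PRA1.B4 and VPS60.1 fell at 24 h and did not pass at 48 h, PRA1.G2 fell at 48 h and did not pass at 24 h, and 24 genes passed at neither. Both comparisons use the same 0 h arrays. The plot of time differences gives every tested member.

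**Figure D2:**
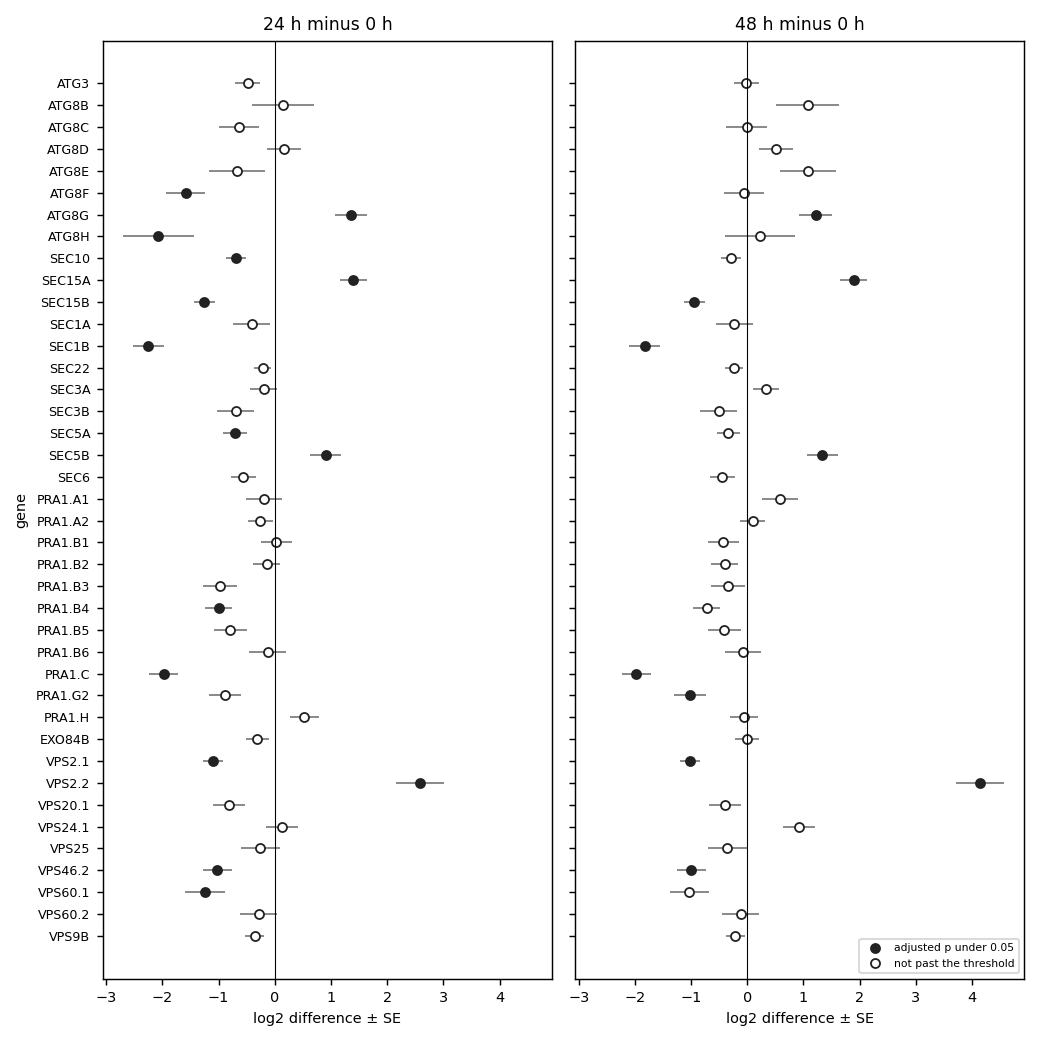
Points are log2 differences of 24 h (left) and 48 h (right) from 0 h for the 40 tested genes, lines are ± 1 standard error, and filled points had an adjusted p under 0.05. VPS2.2 is farthest to the right in both panels and SEC1B farthest to the left at 24 h.

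The median difference of the members was -0.45 at 24 h, where that of all probe sets was 0.10, and -0.22 at 48 h, where that of all probe sets was 0.13. Signs depended on the scaling: 9 members were higher and 31 lower at 24 h as scaled here, against 17 and 23 with the signals as deposited, a setting that moved the median of all probe sets to 0.36. As deposited, 4 rose and 5 fell at 24 h, and 5 rose and 4 fell at 48 h, 22.5% of the members at each time against 46.1% and 42.9% of all probe sets. With quantile normalization 3 rose and 14 fell at 24 h, 42.5% against 42.6%. Every array carried weight. Leaving out any array lowered the calls at 24 h and at 48 h, among the members and over all probe sets alike. It leaves 1 array at its time, which is then assumed to vary like the others, so no conclusion is drawn from the calls of these fits. The differences of ATG8H, VPS2.2 and VPS60.1 moved most and are given below.

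The ATG8 genes, the membrane-bound mark of the autophagosome, did not change together. ATG8G rose, ATG8F and ATG8H fell at 24 h, and ATG3, ATG8B, ATG8C, ATG8D and ATG8E passed at neither time. ATG8H (AT3G06420), whose protein ends in the glycine used for conjugation without prior cleavage, was 8.35 in glucose and 8.03 in sucrose at 0 h, 6.31 and 5.92 at 24 h, and 9.91 and 6.92 at 48 h. Both 24 h arrays lay below both 0 h arrays, and the 48 h arrays lay on either side of them. The difference was -2.07 ± 0.63 at 24 h (adjusted p = 0.0464) and 0.22 ± 0.63 at 48 h (adjusted p = 0.797). This call at 24 h was lost under 5 of 9 alternative settings, with adjusted p up to 0.112. Among the 9, averaging the probe sets of a gene repeats the main fit for every member and is no separate check. The difference was -0.77 (adjusted p = 0.236) without glucose 24 h and -3.37 (adjusted p = 0.0603) without sucrose 24 h.

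ATG8F (AT4G16520) was 10.12 in glucose and 9.36 in sucrose at 0 h, 8.42 and 7.90 at 24 h, and 10.39 and 8.98 at 48 h. It fell by 1.59 ± 0.35 at 24 h (adjusted p = 0.0195) and did not pass at 48 h (-0.06 ± 0.35, adjusted p = 0.911). From 24 to 48 h its signal was higher on both sugars, by 1.98 in glucose and 1.08 in sucrose. ATG8G (AT3G60640) went the other way, with 5.73 and 5.90 at 0 h, 7.04 and 7.29 at 24 h, and 6.81 and 7.24 at 48 h. All 4 cultured arrays lay above both 0 h arrays. ATG8G rose by 1.35 ± 0.29 at 24 h (adjusted p = 0.0169) and by 1.22 ± 0.29 at 48 h (adjusted p = 0.0233).

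ATG8B (AT4G04620) had 6.08 in glucose and 6.99 in sucrose at 0 h, 6.72 and 6.65 at 24 h, and 8.53 and 6.68 at 48 h. Only the glucose 48 h array stood above the other 5, which covered less than 1 log2 unit. Its time differences were 0.15 ± 0.55 (adjusted p = 0.841) and 1.07 ± 0.55 (adjusted p = 0.175). ATG8E (AT2G45170) was 5.61 and 5.51 at 0 h, at the floor at 24 h on either sugar, and 7.68 in glucose and 5.60 in sucrose at 48 h. Again glucose 48 h stood apart. Its 24 h level was at least 1.59-fold lower than at 0 h, a difference that did not pass (adjusted p = 0.315), and its 48 h difference was 1.08 ± 0.50 (adjusted p = 0.141).

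For ATG8C (AT1G62040) the arrays gave 7.05 and 6.44 at 0 h, 6.05 and 6.18 at 24 h, and 6.96 and 6.51 at 48 h, with differences of -0.63 ± 0.36 (adjusted p = 0.2) and -0.01 ± 0.36 (adjusted p = 0.986). ATG8D (AT2G05630) lay between 6.78 and 7.63 on all arrays, highest in glucose at 48 h, and its differences were 0.17 ± 0.31 (adjusted p = 0.675) and 0.51 ± 0.31 (adjusted p = 0.232). ATG3 (AT5G61500), the conjugating enzyme, lay between 8.16 and 8.94, lowest at 24 h on both sugars, with differences of -0.48 ± 0.22 (adjusted p = 0.128) and -0.01 ± 0.22 (adjusted p = 0.967). At 48 h 5 of the 8 ATG genes were above and 3 below 0 h as scaled here, 8 and 0 as deposited, and 7 and 1 with quantile normalization.

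**Figure D3:**
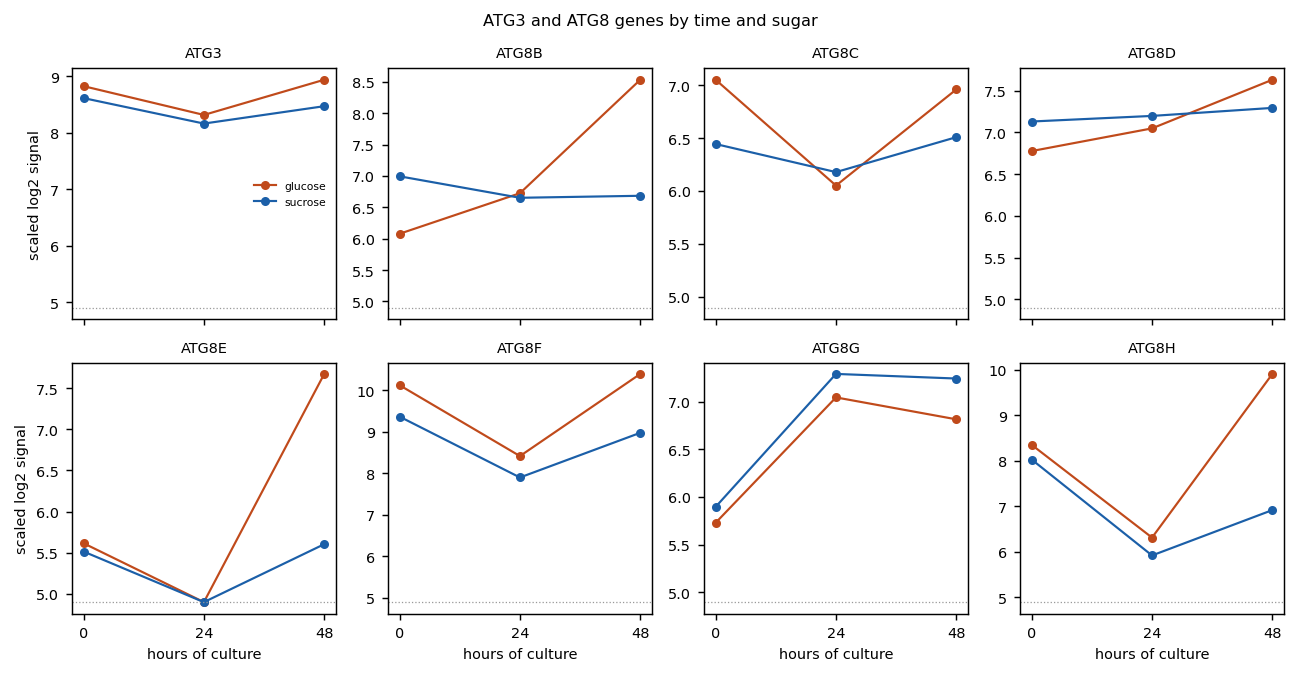
Each panel gives the scaled log2 signal of 1 gene by hours of culture, 1 point per array, in glucose and in sucrose, with the floor of 4.90 as a dotted line. The glucose and sucrose lines part at 48 h for ATG8B, ATG8E, ATG8F and ATG8H, while ATG8G is higher after 0 h on both sugars; vertical scales differ between panels.

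Among autophagy genes outside the ATG symbols, 1 of 6 tested rose and 1 fell at each time. RAPTOR2 (AT5G01770), a partner of the TOR kinase, which restrains autophagy, rose by 1.14 ± 0.22 at 24 h (adjusted p = 0.0133) and 1.33 ± 0.22 at 48 h (adjusted p = 0.00851). AKINBETA1 (AT5G21170), a regulatory subunit of the energy-sensing kinase SnRK1, fell by 2.28 ± 0.43 (adjusted p = 0.0125) and 1.61 ± 0.43 (adjusted p = 0.0334). Its array values were 9.55 and 8.60 at 0 h, 7.07 and 6.53 at 24 h, and 8.22 and 6.71 at 48 h, glucose before sucrose. The other 4 genes of the list passed at neither time. Among them RAPTOR1 (AT3G08850) had the opposite sign to RAPTOR2, with -0.42 ± 0.18 (adjusted p = 0.112) and -0.52 ± 0.18 (adjusted p = 0.0679). AT4G16360 had the opposite sign to AKINBETA1, with 0.67 ± 0.27 (adjusted p = 0.0974) and 0.49 ± 0.27 (adjusted p = 0.199).

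The exocyst genes included 2 pairs whose copies moved in opposite directions, SEC15A and SEC15B at both times and SEC5A and SEC5B at 24 h. SEC15A (AT3G56640) rose from 6.42 in glucose and 6.53 in sucrose at 0 h to 7.94 and 7.81 at 24 h and 8.46 and 8.27 at 48 h. Its differences were 1.40 ± 0.25 (adjusted p = 0.0104) and 1.89 ± 0.25 (adjusted p = 0.00451). SEC15B (AT4G02350) fell from 10.17 and 10.18 to 8.85 and 9.0 at 24 h and 9.35 and 9.12 at 48 h. For both genes the cultured arrays did not overlap the 0 h arrays. The differences of SEC15B were -1.25 ± 0.19 (adjusted p = 0.00705) and -0.94 ± 0.19 (adjusted p = 0.0147). SEC15A, SEC15B and SEC1B passed at both times in all 9 settings that kept every array, of which averaging probe sets repeats the main fit.

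SEC5B (AT1G21170) rose from 7.03 and 6.79 at 0 h to 7.77 and 7.86 at 24 h and 8.45 and 8.04 at 48 h, by 0.91 ± 0.27 (adjusted p = 0.0463) and 1.34 ± 0.27 (adjusted p = 0.0155). SEC5A (AT1G76850) was 8.94 and 8.98 at 0 h, 8.29 and 8.21 at 24 h, and 8.81 and 8.43 at 48 h. It fell by 0.71 ± 0.21 at 24 h (adjusted p = 0.042), and its 48 h difference of -0.33 ± 0.21 did not pass (adjusted p = 0.241). The 24 h calls were held in 6 of 9 settings for SEC5B and in 5 of 9 for SEC5A. The change of SEC5A minus that of SEC5B was -1.61 at 24 h and -1.67 at 48 h, and the change of SEC15A minus that of SEC15B was 2.65 and 2.83. These differences between genes were not tested.

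SEC10 (AT5G12370) was 10.12 and 10.03 at 0 h, 9.40 and 9.37 at 24 h, and 9.98 and 9.59 at 48 h. It fell by 0.69 ± 0.18 at 24 h (adjusted p = 0.0322), a call held in 6 of 9 settings, and did not pass at 48 h (-0.29 ± 0.18, adjusted p = 0.253). EXO84B (AT5G49830) lay between 8.18 and 8.70 on all arrays, with differences of -0.31 ± 0.21 (adjusted p = 0.267) and -0.00 ± 0.21 (adjusted p = 0.997). The SEC genes that passed at neither time were 5: the exocyst genes SEC3A, SEC3B and SEC6, the Sec1/Munc18 gene SEC1A and the R-SNARE gene SEC22. Their differences ran from -0.70 to -0.20 at 24 h and from -0.51 to 0.34 at 48 h. SEC3A (AT1G47550) and SEC3B (AT1G47560) are neighbouring near-copies, so signal may be shared between their probes and their values are uncertain.

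SEC1B (AT4G12120), related to the cytokinesis protein KEULE, had the lowest fitted difference of all members at 24 h. It was 9.73 in glucose and 9.62 in sucrose at 0 h, 7.23 and 7.62 at 24 h, and 8.06 and 7.63 at 48 h. All 4 cultured arrays lay more than 1 log2 unit below both 0 h arrays, with differences of -2.25 ± 0.28 (adjusted p = 0.0047) and -1.83 ± 0.28 (adjusted p = 0.00671). KEU (AT1G12360), the gene of KEULE itself and 1 of 4 Sec1/Munc18 and tether genes tested outside the members, was the one gene of that list to pass. It fell by 1.44 ± 0.20 (adjusted p = 0.00609) and 0.90 ± 0.20 (adjusted p = 0.0206).

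**Figure D4:**
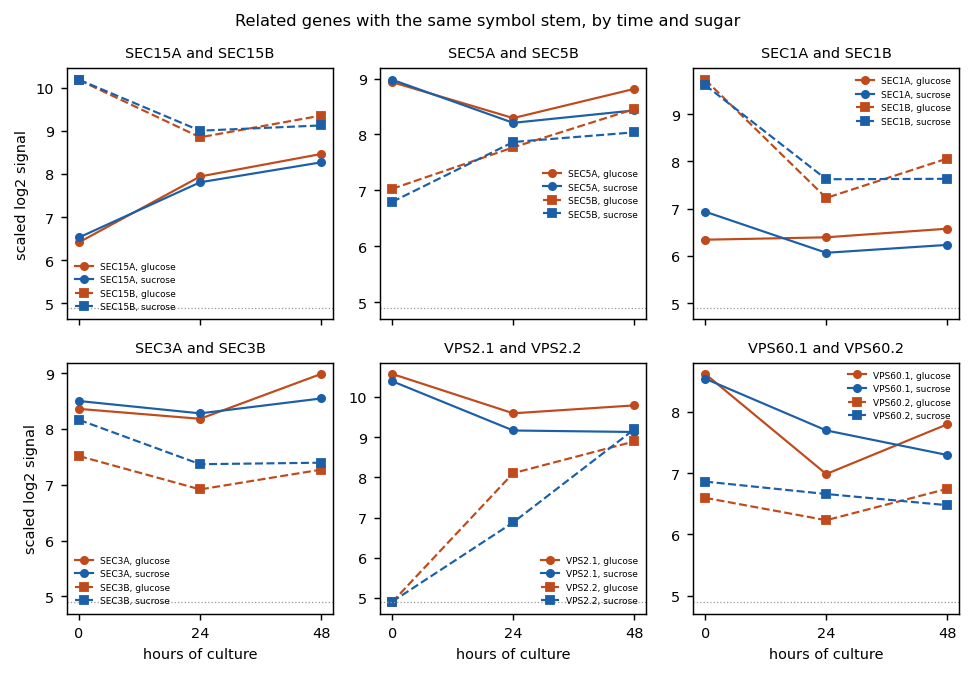
Each panel gives the scaled log2 signal of 2 genes of a shared symbol stem by hours of culture, 1 point per array, the first gene with solid and the second with dashed lines, and the floor of 4.90 dotted. SEC15A and SEC15B, SEC5A and SEC5B, and VPS2.1 and VPS2.2 move in opposite directions from 0 to 24 h; levels of different genes come from different probes and are not comparable.

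VPS2.2 (AT5G44560), 1 of the genes for the ESCRT-III subunit VPS2, had the highest difference of all members at both times. Its signal was at the floor in glucose (4.76 before the floor) and 4.91 in sucrose at 0 h, 8.10 and 6.88 at 24 h, and 8.89 and 9.19 at 48 h. All cultured arrays lay far above the 0 h arrays, and those of 24 and 48 h did not overlap. It rose by 2.59 ± 0.43 at 24 h (adjusted p = 0.00883), 6.02-fold, and by 4.14 ± 0.43 at 48 h (adjusted p = 0.00264), 17.6-fold, folds that start at the floor and so are close to lower bounds. VPS2.2 passed the filter through its cultured arrays, where it was high, since one 0 h array was at the floor and the other just above it. At 24 h the difference was 1.83 (adjusted p = 0.0822) without glucose 24 h and 3.35 (adjusted p = 0.0492) without sucrose 24 h. At 48 h it was 4.90 (adjusted p = 0.0549) without glucose 48 h and 3.38 (adjusted p = 0.0734) without sucrose 48 h. With the floor at the 60th percentile the 24 h call was lost (adjusted p = 0.0991).

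The 5 dividing-cell genes also rose at both times, though AUR2 entered the test through its cultured arrays alone. AUR1 (AT4G32830), a mitotic kinase of that list, was 5.81 in glucose and 5.52 in sucrose at 0 h, 9.41 and 8.24 at 24 h, and 10.28 and 10.77 at 48 h. At 24 h AUR1, AUR2 and PRL were higher in glucose, as VPS2.2 was, while AUR3 and HTR12 were higher in sucrose (by 1.48 and 0.18). At 48 h all 5 were higher in sucrose, by 0.32 to 0.86. Of 3 cytokinesis genes tested, KEU fell as given above, and FU (AT1G50240), a kinase needed for cytokinesis, rose by 2.00 ± 0.33 (adjusted p = 0.00924) and 3.29 ± 0.33 (adjusted p = 0.00256). The part of dividing cells in the VPS2.2 signal was not tested.

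VPS2.1 (AT2G06530) fell while VPS2.2 rose. It was 10.57 and 10.39 at 0 h, 9.59 and 9.16 at 24 h, and 9.79 and 9.13 at 48 h, with differences of -1.10 ± 0.18 (adjusted p = 0.0085) and -1.02 ± 0.18 (adjusted p = 0.00995). VPS46.2 (AT1G73030), a CHMP1-type accessory ESCRT subunit, was 8.79 and 8.59 at 0 h and 7.51 to 7.82 on the 4 cultured arrays. It fell by 1.02 ± 0.26 (adjusted p = 0.0281) and 0.99 ± 0.26 (adjusted p = 0.0311). Neither gene had a cultured array that reached its 0 h arrays.

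VPS60.1 (AT3G10640), another accessory subunit, was 8.62 and 8.54 at 0 h, 6.99 and 7.70 at 24 h, and 7.80 and 7.30 at 48 h. It fell by 1.24 ± 0.35 at 24 h (adjusted p = 0.039) and did not pass at 48 h (-1.03 ± 0.35, adjusted p = 0.0657). Without glucose 24 h the 24 h difference was -0.63 (adjusted p = 0.148), and without sucrose 24 h -1.84 (adjusted p = 0.0567). The other 5 tested VPS genes passed at neither time: the ESCRT genes VPS20.1, VPS24.1, VPS25 and VPS60.2, and VPS9B, a relative of the Rab5-type exchange factor VPS9A. Their differences ran from -0.81 to 0.13 at 24 h and from -0.40 to 0.92 at 48 h.

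Outside the members, 6 other ESCRT, retromer and vacuolar sorting genes were tested, of which 0 rose at either time, 2 fell at 24 h and 1 at 48 h. Of all probe sets, 19.8% were lower and 24.2% higher at 24 h, and 19.9% and 22.1% at 48 h. A list of 6 genes is too short to set apart from these shares. ELC (AT3G12400), an ESCRT-I subunit, fell by 0.96 ± 0.22 (adjusted p = 0.0221) and 1.02 ± 0.22 (adjusted p = 0.0187). SNF7.1 (AT4G29160), an ESCRT-III subunit, fell by 1.71 ± 0.33 at 24 h (adjusted p = 0.0133). Of 3 ARF-like GTPases tested, ARLA1A (AT5G37680) rose by 2.05 ± 0.39 (adjusted p = 0.0125) and 2.98 ± 0.39 (adjusted p = 0.00446), and ARLA1C (AT3G49870) fell by 1.03 ± 0.28 (adjusted p = 0.0332) and 1.04 ± 0.28 (adjusted p = 0.0323). Of 3 clathrin, adaptor and dynamin genes 0 passed at either time. The 1 SNARE gene with a probe set outside the members was at the floor on every array.

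Among the 11 tested PRA1 genes 0 rose, and 2 were called lower at 24 h and 2 at 48 h, PRA1.C both times. These are 18.2% at each time, near the 19.8% (24 h) and 19.9% (48 h) of all probe sets that were lower. Of all probe sets, 24.2% and 22.1% were higher. PRA1.C was 7.15 in glucose and 6.60 in sucrose at 0 h and at the floor on all 4 cultured arrays. Relative to 0 h it was at least 3.94-fold lower at each time, a bound given as a description: the gene passed the filter only through the time at which it was high, and equal floor values leave no spread among its cultured arrays. PRA1.B4 (AT2G38360) was 10.53 and 11.01 at 0 h, 9.79 and 9.76 at 24 h, and 10.30 and 9.79 at 48 h. It fell by 1.0 ± 0.24 at 24 h (adjusted p = 0.0241), and its 48 h difference was -0.72 ± 0.24 (adjusted p = 0.0604). PRA1.G2 (AT5G56230) was 6.19 and 6.68 at 0 h, 5.16 and 5.96 at 24 h, and 5.24 and 5.61 at 48 h. Both its 24 h and 48 h arrays lay below 0 h, and it passed at 48 h (-1.01 ± 0.28, adjusted p = 0.0391) and not at 24 h (-0.88 ± 0.28, adjusted p = 0.0563). The 48 h call of PRA1.G2 was held in 4 of 8 settings that gave a value. The other 8 tested PRA1 genes had differences from -0.97 to 0.53 at 24 h and from -0.42 to 0.59 at 48 h.

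Changes of at least 2-fold from 0 h were also counted on each sugar by itself, between single arrays and with no test. In glucose 3 were 2-fold higher and 8 lower at 24 h, 7.5% and 20%, against 25.1% and 18.5% of all probe sets. In sucrose 4 were higher and 8 lower, 10% and 20%, against 21.7% and 17.1%. At 48 h in glucose 9 were higher and 2 lower (22.5% and 5%, against 19.6% and 17.9%), and in sucrose 4 were higher and 10 lower (10% and 25%, against 22.9% and 19.2%). SEC1B and PRA1.C were the 2 lower in glucose at 48 h, and both were also lower in sucrose. ATG8H was 2-fold above 0 h in glucose and 2-fold below it in sucrose.

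Between 24 and 48 h, 0 members passed (smallest adjusted p = 0.142) and 0% of all probe sets did (smallest adjusted p = 0.0820), while 5 members and 4872 probe sets (12.5% and 18.9%) had an unadjusted p under 0.05. The fitted difference was positive for 32 of 40 members, with a median of 0.33 against -0.03 over all probe sets. In glucose 33 members were higher at 48 h than at 24 h, 82.5% against 41.5% of all probe sets, and 6 were at least 2-fold higher: ATG8B, ATG8E, ATG8F, ATG8H, PRA1.A1 and VPS24.1. Of all probe sets 7.57% were at least 2-fold higher and 11.4% lower. In sucrose 26 members were higher, 65% against 43.4%, and 2 were at least 2-fold higher, ATG8F and VPS2.2, against 5.41% of all probe sets higher and 4.29% lower. On neither sugar was a member 2-fold lower at 48 h than at 24 h. These counts compare single arrays and carry no test.

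The comparison of sugars asks whether the members responded to sucrose as to glucose. In no sugar comparison did a member or any other probe set pass (0% of all probe sets). For sucrose minus glucose over the cultured arrays, 3 members and 2613 probe sets (7.5% and 10.1%) had an unadjusted p under 0.05, with smallest adjusted p-values of 0.456 for members and 0.151 over all. At 24 h alone 2 members had an unadjusted p under 0.05, 5% against 11.4% of all probe sets. At 48 h 3 did, 7.5% against 17.3%, and for the change between them 5, 12.5% against 13.4%. The tests at 24 h, at 48 h and of the change take their spread from the pair of 0 h arrays and assume that the single cultured arrays vary alike.

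At 24 h the members fell on both sides of 0, 20 higher and 17 lower in sucrose, and 1 was 2-fold lower and 0 higher, against 3.33% and 3.17% of all probe sets. At 0 h 0 members were 2-fold apart, against 4.63% higher and 1.46% lower in sucrose over all probe sets. VPS2.2 was lower in sucrose by 1.22 on the log2 scale (-1.22, adjusted p = 0.325). The next lower were PRA1.B3 (-0.55), ATG8F (-0.52), VPS2.1 (-0.43) and ATG8H (-0.39). Highest in sucrose were PRA1.G2 (0.80), VPS60.1 (0.71), SEC3B (0.45), VPS60.2 (0.43) and SEC1B (0.40).

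At 48 h 31 of 40 members were lower in sucrose than in glucose, 77.5% against 41.2% of all probe sets, and the median difference was -0.34. The 4 members at least 2-fold lower were all ATG8 genes: ATG8H at -2.99 (adjusted p = 0.178), ATG8E at -2.07 (adjusted p = 0.142), ATG8B at -1.85 (adjusted p = 0.421) and ATG8F at -1.42 (adjusted p = 0.439). The fifth lowest was PRA1.B3 at -0.95 (adjusted p = 0.488). Of all probe sets 5.68% were at least 2-fold lower in sucrose. Highest in sucrose were ATG8G (0.43), PRA1.G2 (0.36), VPS2.2 (0.30), PRA1.H (0.20) and VPS25 (0.17), and 0 members were 2-fold higher, against 8.05% of all probe sets. As deposited 28 members were lower in sucrose at 48 h, and with quantile normalization 30.

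**Figure D5:**
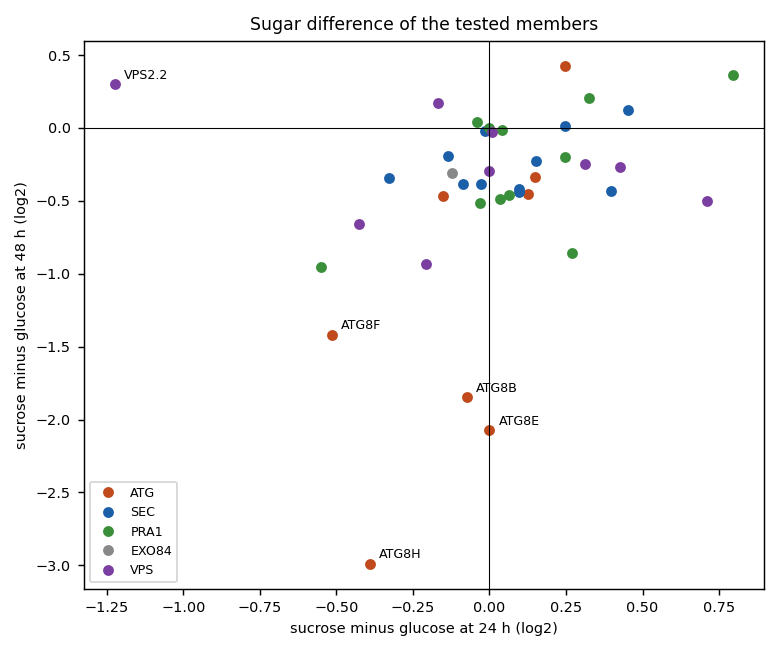
Each point is 1 of the 40 tested genes, placed by sucrose minus glucose (log2) at 24 h on the horizontal and at 48 h on the vertical axis, coloured by symbol prefix. ATG8B, ATG8E, ATG8F and ATG8H lie lowest, between -2.99 and -1.42 at 48 h, while at 24 h they lie between -0.52 and 0; none of these differences passed the test.

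The ATG8 difference at 48 h rests on 2 single arrays, and other measures differed between them. The xylem vessel list averaged 9.16 in glucose and 7.61 in sucrose at 48 h, against 7.24 to 7.52 on the other 4 arrays, and its member GUT2 (AT1G27440), which acts in xylan synthesis of secondary walls, was 10.74 and 8.53. Background controls of high GC content read 8.35 in glucose and 7.50 in sucrose at 48 h. The sugar starvation list was represented by MCCB alone, at 7.14 and 6.65. The part of these in the ATG8 difference was not tested. At 0 h ATG8H, ATG8E and ATG8F were already lower in sucrose, by 0.32, 0.10 and 0.76, and ATG8B was higher by 0.91.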

How the data were processed

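The values were the authors' deposited log2 signals, 1 column per array and 1 row per probe set. GCOS produced them, per the submitters' processing notes, and the labels' protocols state that RNA was amplified. The sources used here do not state the log base, background correction or normalization. Base 2 was inferred from the largest value, 14.2, which is 19217 on a linear scale.

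Of 38408 probe sets, 98 controls were left out. Each array was scaled to the mean of the 2% trimmed means, signals were raised to the floor, and a probe set was tested if 2 or more arrays exceeded it. In limma 3.58.1 (R 4.3.3; eBayes with an intensity trend, two-sided) a model of 4 coefficients had 3 time means and 1 sugar term for cultured arrays, with 2 residual degrees of freedom, and a second model with 5 coefficients gave each cultured array its own, leaving 1. The procedure was tested on simulated data. The precision is limited by the number of arrays.

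Named were up to 5 highest and 5 lowest called genes per symbol prefix and time, every gene of a prefix with at most 8, the 5 largest sugar differences of each sign, and up to 3 called genes each way per other list; further genes were named after their values were seen. Members and lists were chosen with earlier results of these data known. Epidermis and Rab lists had 0 probe sets, and 3 list symbols belonging to another gene were dropped after values were seen. Alternatives were scaling, floor, filter, trend, model and leaving out arrays.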

Additional observations from a re-analysis of the deposited data

Results flagged for a closer look

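Some members differed from 0 h in opposite directions in glucose and in sucrose, each on single arrays. Some of these changes were close to 0, as for SEC1A at 24 h (0.05 in glucose) and PRA1.H at 48 h (0.0046 in glucose). The share of all probe sets with opposite signs was not counted. Values below are the change in sucrose minus the change in glucose, in log2 units, and these differences were not tested. The change of the sugar difference from 24 to 48 h, which was tested, called 0 members. At 24 h they were ATG8B (-0.99), SEC1A (-0.92), PRA1.B1 (-0.54), PRA1.B2 (-0.50), PRA1.B6 (-0.73) and VPS25 (-0.79), which were higher than at 0 h in glucose and lower in sucrose.

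At 48 h the largest were ATG8B (-2.76), up by 2.45 in glucose and -0.31 in sucrose, and ATG8H (-2.67), with 1.56 and -1.11. PRA1.B3 (-1.56), PRA1.B6 (-1.25), SEC1A (-0.94), ATG8F (-0.66), PRA1.A2 (-0.54), VPS60.2 (-0.53), ATG3 (-0.26), EXO84B (-0.20) and PRA1.H (-0.13) were also above 0 h in glucose and below it in sucrose. ATG8C (0.16) had the reverse signs. The 0 h arrays enter each value: ATG8B was 6.08 in glucose and 6.99 in sucrose before culture, and PRA1.B6 was 8.74 and 9.53.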

How the results depend on the processing

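No paired analysis by replicate number was possible because each sugar and time is 1 array and the labels give no such numbers. A fit that tied the arrays of a sugar together was run: with sugar as a block over all 3 times, 14 of the 15 calls at 24 h and all 10 at 48 h remained. The 15 calls at 24 h became 9 with signals as deposited, 22.5% of the members against 46.1% of all probe sets. With the 5-coefficient model the 15 became 5, 12.5% against 22.4%. The 10 at 48 h became 6 with that model, 15% against 23.9%. Without any 1 array the share of all probe sets called was also lower than in the main fit, where it was 44% at 24 h and 42% at 48 h. Such a fit leaves 1 array at its time, so no conclusion is drawn from its calls. Leaving out 1 array gave 0 to 5 calls at 24 h and 0 to 7 at 48 h, where the lower counts come with fewer arrays. With the floor at the 60th percentile 2 of 35 members passed for sugar at 24 h (ATG8G and VPS2.2), 1 at 48 h (ATG8G) and 1 for the change (VPS2.2), where the main setting called 0, and the cause was not tested. These are 5.71%, 2.86% and 2.86% of the members, against 9.02%, 13.4% and 12.9% of all probe sets under that setting. The remaining alternatives kept the counts within 1.5 times. No called member changed sign under any alternative. Quantile normalization kept 13 of 15 and 10 of 10 calls, and the 20th percentile floor 15 and 9. Each member has 1 probe set, so averaging probe sets repeats the main fit and could change nothing. Signals near the floor (VPS9B, VPS2.2 at 0 h, ATG8E at 24 h) mix transcript and background, and differences there are compressed.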
